A study of Homo sapiens with 24 samples.

Results

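The genes described here are 48 interferon-stimulated antiviral genes: the IFIT proteins, the oligoadenylate synthetases, the Mx GTPases, the ISG15 conjugation system, membrane restriction factors and related genes, listed by name from knowledge of the interferon response, with earlier results of these data known. A gene was represented by its best detected probe, that is, the probe with a detection p-value under 0.05 on most of the 24 arrays. By this rule 44 of the 48 members were measured, among 13789 genes in all. MX2, PLSCR1 and SAMD9L did not pass the requirement of detection on 3 arrays: MX2 was detected on 1 array, PLSCR1 on 2 and SAMD9L on 0. STAT2 was not analysed here.

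Total RNA of LNCaP cells, an established human prostate cancer line that responds to androgen, and of C4-2B cells, an established castration-resistant line derived from it, was hybridised to Illumina bead arrays. Each line had 4 groups of 3 arrays. In the drug experiment cells received DMSO, the solvent, or EPZ6438 at 1 µM for 3 days. EPZ6438 (tazemetostat) inhibits the methyltransferase activity of EZH2, the catalytic subunit of Polycomb repressive complex 2. In the transfection experiment cells were given siControl, the control siRNA, or siEZH2, which targets the coding sequence of EZH2, again for 3 days. The comparisons ask how loss of EZH2 RNA and inhibition of EZH2 activity change transcripts in each line. A single siRNA is named, so loss of EZH2 and other effects of that siRNA cannot be told apart. The labels do not say that the 3 arrays of a group came from separate cultures, so the p-values cover array-to-array spread alone, and that spread may be technical.

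Type I and type III interferons bind receptors at the cell surface, and the kinases JAK1 and TYK2 then signal to the complex ISGF3, which contains STAT2 and IRF9. It enters the nucleus and binds the interferon-stimulated response element (ISRE) in the promoters of antiviral genes. The products of these genes degrade or sequester viral RNA, tag proteins with ISG15, or block viral entry and budding. Interferon itself is made after RIG-I and MDA5, encoded by RIGI and IFIH1, or TLR3 detect double-stranded RNA. Loss of Polycomb repression is known to change the interferon response of several tumour types.

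Between 19304 and 21653 probes were detected per array. The targeted gene fell with its siRNA: the mean log2 intensity of EZH2 was 6.72 ± 0.01 (SD, n = 3 arrays, as for all means given below) with siControl and 5.85 ± 0.10 with siEZH2 in LNCaP, a log2 difference of −0.87 ± 0.16 (SE of the fit, as for all differences below; limma adjusted p = 0.000174). In C4-2B EZH2 went from 7.53 ± 0.26 to 6.51 ± 0.33, a log2 difference of −1.02 ± 0.16 (limma adjusted p = 7.12e-05). All 8 measured genes of a list of 10 luminal prostate markers were detected on every array of all 8 groups; the other two were not analysed here. Of 13 blood and immune cell markers, 5 were measured, and PTPRC and CD3D, which define white blood cells and T cells, were detected on 0 arrays. CD68, a lysosomal protein, was detected on 24 arrays, CD14 on 20, LYZ on 19, FCGR3A on 18 and ITGAM on 3. Of 9 fibroblast markers 4 were measured, with COL1A1 detected on 21 arrays, and of 6 endothelial markers 1, VWF, detected on 24. The mean log2 intensity of the 5 measured blood and immune markers was between 4.95 and 5.51 on every array, and that of the 4 fibroblast markers between 4.37 and 4.70. As the RNA is from whole cultures, fewer cells that express a gene and less of its RNA per cell cannot be told apart.

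The letters of the element that ISGF3 binds occur in the promoters of most members. Windows from 250 bases before to 50 bases after the transcription start, from RefSeq (GRCh38.p14), were found for 40 of the 48 members; IFIT2, OAS2, OASL, MX2, USP18, IFITM2, IRF7 and PLAAT4 are named only. The ISRE was searched as GAAANNGAAA on both strands, overlapping matches included, and 28 of the 40 members (70%) held it, against 4.38% of 27305 genes. A match is only a run of letters and not a measured binding site. Of the 29 members with a window that were higher with siEZH2 in LNCaP, 22 held the ISRE, and of the 8 measured members with a window that were not, 5 held it. The 250 bases before the start are shown for IFIT1 and RSAD2, which are among the 6 members with the largest rise in LNCaP, and for 4 members chosen after their values were seen: ISG15, HERC5 and IFI27, which hold 2 or more matches, and UBE2L6, which held none in any window and was the member called higher in all 4 treatment comparisons. Capitals mark the ISRE matches.
IFIT1, chr10:89392373-89392622, plus strand: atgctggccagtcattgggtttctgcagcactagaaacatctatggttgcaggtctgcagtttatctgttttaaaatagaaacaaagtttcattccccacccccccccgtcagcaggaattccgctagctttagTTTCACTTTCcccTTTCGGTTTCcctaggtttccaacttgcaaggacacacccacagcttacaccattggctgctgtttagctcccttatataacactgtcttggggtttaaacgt
RSAD2, the window that holds a match, chr2:6877527-6877776, plus strand: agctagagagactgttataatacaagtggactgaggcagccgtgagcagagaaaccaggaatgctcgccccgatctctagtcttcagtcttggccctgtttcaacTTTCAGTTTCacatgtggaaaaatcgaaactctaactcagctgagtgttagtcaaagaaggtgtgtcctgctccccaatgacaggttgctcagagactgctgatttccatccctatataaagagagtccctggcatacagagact
ISG15, chr1:1013247-1013496, plus strand: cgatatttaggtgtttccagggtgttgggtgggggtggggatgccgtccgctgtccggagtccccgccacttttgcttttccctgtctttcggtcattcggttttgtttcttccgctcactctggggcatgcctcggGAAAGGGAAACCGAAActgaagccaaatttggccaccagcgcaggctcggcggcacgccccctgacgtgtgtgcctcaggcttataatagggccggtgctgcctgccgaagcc
HERC5, chr4:88456869-88457118, plus strand: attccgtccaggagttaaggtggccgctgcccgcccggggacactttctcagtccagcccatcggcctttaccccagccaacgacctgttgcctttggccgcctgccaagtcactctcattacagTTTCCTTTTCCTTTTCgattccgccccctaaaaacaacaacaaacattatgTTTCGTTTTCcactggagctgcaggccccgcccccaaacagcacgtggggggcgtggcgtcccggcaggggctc
IFI27, chr14:94110486-94110735, plus strand: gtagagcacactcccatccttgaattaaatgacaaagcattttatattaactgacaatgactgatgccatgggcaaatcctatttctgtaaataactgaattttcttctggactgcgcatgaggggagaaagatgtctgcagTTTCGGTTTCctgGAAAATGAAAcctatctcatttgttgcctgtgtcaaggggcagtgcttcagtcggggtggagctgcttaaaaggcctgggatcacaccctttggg
UBE2L6, chr11:57567936-57568185, minus strand: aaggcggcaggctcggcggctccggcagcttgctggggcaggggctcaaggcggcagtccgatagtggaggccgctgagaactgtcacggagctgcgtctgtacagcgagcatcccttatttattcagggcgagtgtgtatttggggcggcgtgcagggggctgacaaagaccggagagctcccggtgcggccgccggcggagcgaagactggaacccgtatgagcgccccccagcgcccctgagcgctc

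EZH2 siRNA raised most of the antiviral genes in LNCaP. Of the 44 measured members 35 rose, 1 fell and 8 did not pass the test (limma, 24 arrays, Benjamini-Hochberg adjusted p under 0.05 over all 13789 genes, which is what called means below); 14.2% of all genes were called higher and 12.5% lower. The median log2 difference of the members was 0.80, against 0.02 over all genes. The mean log2 intensity over the members was 6.43 to 6.50 on the 3 siControl arrays and 7.43 to 7.51 on the 3 siEZH2 arrays. Because a probe that is high in a single group can pass the detection rule through that group alone, the count was repeated over the 42 members that passed on the other arrays, of which 34 rose and 1 fell. Markers of cell types moved in the same comparison: 5 of the 8 luminal markers were lower with siEZH2 and 0 higher (median −0.47; list mean 9.40 to 9.44 with siControl and 8.79 to 8.85 with siEZH2), and of the 5 blood and immune markers CD68 was higher (0.77 ± 0.22, adjusted p = 0.0108), with list means of 5.02 to 5.07 and 5.15 to 5.40. Their part in the members' rise was not tested. The plot of all members by array shows the 3 siEZH2 arrays of LNCaP as a block above the other LNCaP arrays.

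**Figure D1:**
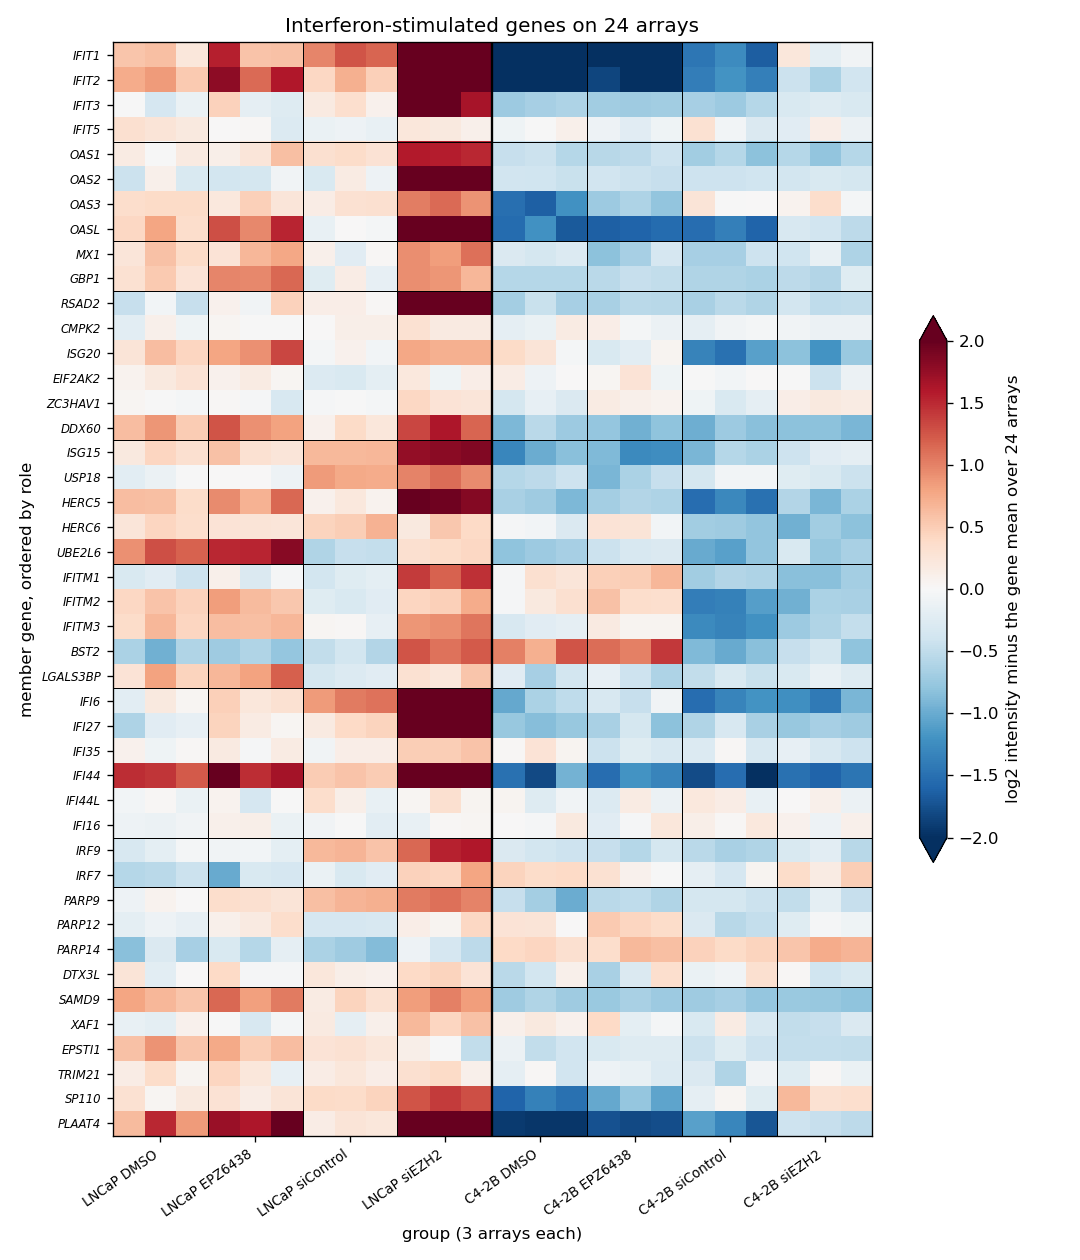
Normalised log2 intensity minus the gene's mean over 24 arrays (colour, clipped at −2 and 2) for the 44 measured members (rows, ordered by role) on the 3 arrays of each of the 8 groups (columns). The 3 siEZH2 arrays of LNCaP are above the gene mean for most members, and the C4-2B arrays are below it for most.

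Among the IFIT proteins, which bind viral RNA and block its translation, IFIT1, IFIT2 and IFIT3 rose and IFIT5 did not pass. They lie in a cluster on chromosome 10. IFIT1 (Entrez 3434, chr10:89392623-89406487) read 7.69, 7.97 and 7.88 with siControl and 10.37, 10.61 and 10.22 with siEZH2, a log2 difference of 2.55 ± 0.18 (adjusted p = 3.17e-10). IFIT2 (Entrez 3433, chr10:89302046-89309271) read 6.92, 7.21 and 6.98 against 9.78, 9.95 and 9.53, a difference of 2.72 ± 0.14 (adjusted p = 2.19e-12). The siEZH2 arrays were above every siControl array for both genes. IFIT3 went from 5.12 ± 0.13 to 7.19 ± 0.59 and IFIT5 from 4.42 ± 0.03, detected on 0 of the siControl arrays, to 4.72 ± 0.06 (adjusted p = 0.0694).

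All 4 oligoadenylate synthetase genes rose, with differences from 0.76 to 3.32. OAS1, OAS2 and OAS3 make the 2′-5′-linked oligoadenylates that activate RNase L, and OASL is a related protein without that activity in humans that enhances RIG-I signalling. OASL (Entrez 8638, chr12:121017761-121039246) had the largest rise of all members: 5.73, 5.89 and 5.85 with siControl against 9.07, 9.24 and 9.12 with siEZH2, a log2 difference of 3.32 ± 0.13 (adjusted p = 1.28e-14). OAS2 (Entrez 4939, chr12:112978519-113011723) read 4.30, 4.76 and 4.50, detected on 1 of these arrays, against 6.77, 6.65 and 6.78, a difference of 2.21 ± 0.12 (adjusted p = 2.91e-12). OAS2 met the detection rule only through the compared arrays. OAS1 went from 5.44 ± 0.04 to 6.67 ± 0.04 and OAS3 from 6.59 ± 0.09 to 7.35 ± 0.12.

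Of the antiviral enzymes and kinases 5 of 6 rose. RSAD2 encodes viperin, a radical SAM enzyme whose nucleotide product stops viral RNA polymerases. RSAD2 (Entrez 91543, chr2:6865885-6898239) read 5.02, 5.02 and 4.92 with siControl and 7.23, 7.40 and 6.97 with siEZH2, a log2 difference of 2.21 ± 0.13 (adjusted p = 1.15e-11). Its neighbour CMPK2, a mitochondrial nucleotide kinase, was not detected with siControl and was at 4.59 ± 0.07 with siEZH2 (adjusted p = 0.303). DDX60, a helicase, went from 5.43 ± 0.15 to 6.57 ± 0.23 (adjusted p = 5e-07). The rises of ISG20, a 3′-5′ exonuclease (0.74 ± 0.15), EIF2AK2, the kinase PKR that stops translation on double-stranded RNA (0.35 ± 0.11), and ZC3HAV1, the zinc finger protein ZAP that binds CpG-rich viral RNA (0.34 ± 0.09), were smaller.

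In the ISG15 system, ISG15, UBE2L6 and HERC5 rose, and USP18 and HERC6 did not pass. These are the ubiquitin-like modifier, its E2 conjugating enzyme and its main human E3 ligase, while USP18 removes ISG15 and restrains the type I interferon receptor. ISG15 went from 10.32 ± 0.01 to 11.47 ± 0.04, UBE2L6 from 5.61 ± 0.08 to 6.49 ± 0.05 and HERC5 from 7.59 ± 0.08 to 9.42 ± 0.11. USP18 was at 6.49 ± 0.06 and 6.73 ± 0.09 (adjusted p = 0.111), and HERC6 at 7.66 ± 0.13 and 7.50 ± 0.17 (adjusted p = 0.302).

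All 5 measured membrane and surface factors rose. BST2, tetherin, which holds budding virions at the cell surface, went from 4.91 ± 0.11 to 6.58 ± 0.09. IFITM1, IFITM2 and IFITM3, which block fusion of viral and cellular membranes, rose by log2 differences of 1.61 ± 0.11, 0.81 ± 0.12 and 0.99 ± 0.10. LGALS3BP, a secreted glycoprotein that binds galectin-3, rose by 0.65 ± 0.15. Both measured GTPase genes also rose: MX1, which traps viral nucleocapsids, from 5.60 ± 0.17 to 6.58 ± 0.14, and GBP1, a guanylate-binding protein, from 4.71 ± 0.20 to 5.62 ± 0.14.

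Of the IFI family, IFI27, IFI44, IFI6 and IFI35 rose. IFI27 and IFI6 are small membrane proteins, and IFI27 had the larger change, from 5.43 ± 0.14 to 7.50 ± 0.17 (2.07 ± 0.14, adjusted p = 6.68e-11). IFI6 went from 10.76 ± 0.12 to 11.96 ± 0.07, IFI44 from 6.74 ± 0.04 to 8.57 ± 0.12 and IFI35 from 6.52 ± 0.12 to 6.97 ± 0.04. IFI16, a nuclear DNA sensor, was not detected on any array of either group, and IFI44L was at 4.85 ± 0.25 and 4.88 ± 0.17 (adjusted p = 0.911). A second IFI44L probe, detected on 3 of the 24 arrays, rose by 1.70 ± 0.09 (limma adjusted p over all probes = 1.95e-12). It met the detection rule with no array to spare. Its difference was −0.03 ± 0.09 for the siRNA in C4-2B. For the drug it was −0.06 ± 0.09 (LNCaP) and 0.04 ± 0.09 (C4-2B). Whether this probe passed the rule only through the siEZH2 arrays of LNCaP was not tested.

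The transcription factors and the ADP-ribosyltransferases moved less. IRF9, the DNA-binding subunit of ISGF3, rose by 0.79 ± 0.11 and IRF7, which amplifies interferon transcription, by 0.78 ± 0.15. PARP12, PARP14 and PARP9 rose by 0.53 ± 0.11, 0.41 ± 0.13 and 0.38 ± 0.11, and DTX3L, the ubiquitin ligase that partners PARP9, had a difference of 0.23 ± 0.20 (adjusted p = 0.442). Among the remaining members PLAAT4, a phospholipase and acyltransferase first described as retinoic acid-inducible, had the largest change. PLAAT4 (Entrez 5920, chr11:63536808-63546458) read 6.32, 6.42 and 6.39 with siControl and 8.56, 8.88 and 8.68 with siEZH2, a log2 difference of 2.33 ± 0.16 (adjusted p = 1.89e-10). SP110, a nuclear body protein, rose by 0.91 ± 0.11, SAMD9, which restricts poxviruses, by 0.59 ± 0.10 and XAF1, a pro-apoptotic factor, by 0.52 ± 0.14. TRIM21, a cytosolic antibody receptor, was at 6.43 ± 0.05 and 6.52 ± 0.15 (adjusted p = 0.692).

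EPSTI1 was the member that fell. It read 5.03, 5.06 and 4.97 with siControl and 4.87, 4.74 and 4.26 with siEZH2, a log2 difference of −0.40 ± 0.13 (adjusted p = 0.0235). The lowest value is that of siEZH2 replicate 3, and without this array the difference was −0.22 (adjusted p = 0.23). The call was also lost in 5 other processing settings and without siControl replicate 1 or 2, with adjusted p from 0.0541 to 0.896 over these losses.

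**Figure D2:**
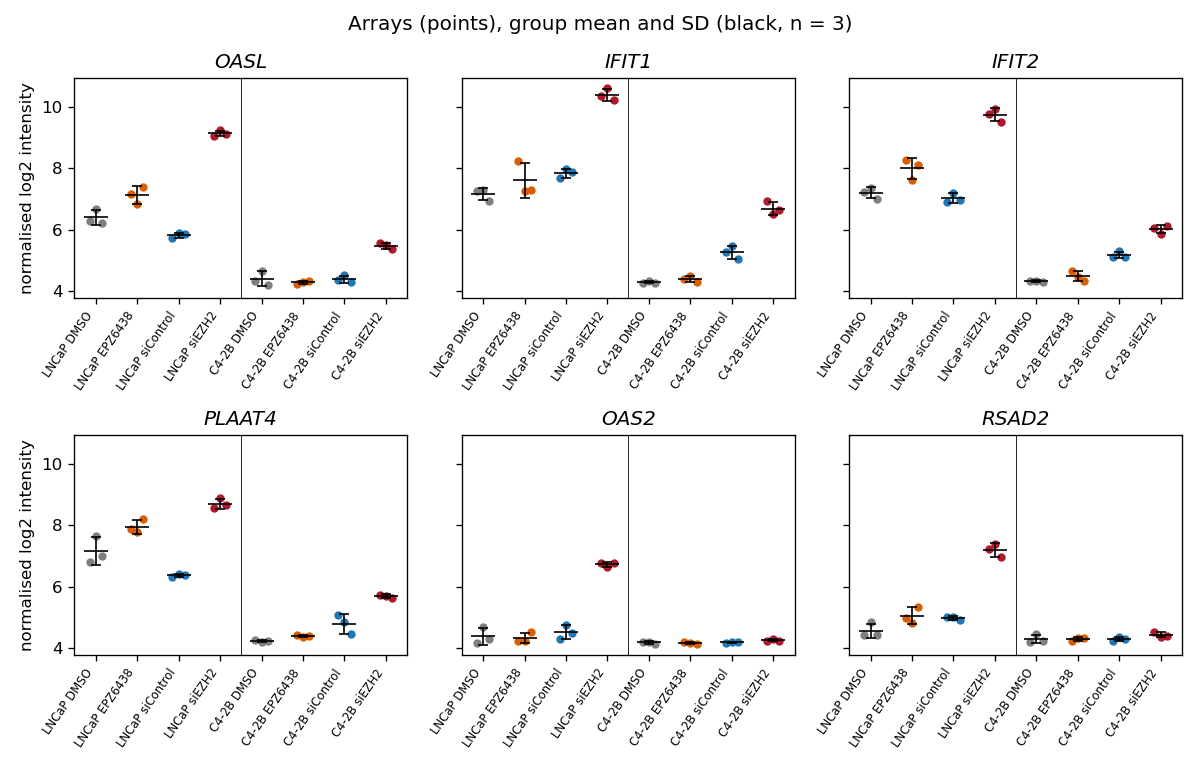
Normalised log2 intensity (vertical axis) of the 6 members with the largest rise with siEZH2 in LNCaP, on each array (points) of the 8 groups, with the mean and SD of 3 arrays. The siEZH2 arrays of LNCaP are the highest for each gene, and the C4-2B arrays of OAS2 and RSAD2 stay near 4 to 5.

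Probes for the same gene did not always move alike. In LNCaP 18 other probes of 14 members passed the detection rule, and of 17 whose partner was called with siEZH2, 14 had the same sign. The second probe of OASL rose by 1.60 ± 0.15, that of IFIT1 by 0.49 ± 0.17 and that of OAS2, detected on 3 arrays, by 0.31 ± 0.08. Other probes of OAS1 (−0.11 ± 0.14), XAF1 (−0.08 ± 0.11) and ZC3HAV1 (−0.32 ± 0.14) had the opposite sign and were not called, and a second UBE2L6 probe had a difference of 0.06 ± 0.16.

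In C4-2B fewer members responded to the same siRNA. There 13 of 44 rose and 0 fell (10.1% of all genes were called higher and 8.5% lower; at an unadjusted p under 0.05, 16 were higher and 0 lower by limma), with a median log2 difference of 0.17 against 0.03 over all genes. All 13 had also risen in LNCaP; they were 37.1% of the LNCaP list, while 34.6% of all genes called higher in LNCaP were also called higher in C4-2B, and 48.9% of those in C4-2B were called in LNCaP. The members that rose were IFIT1, OASL, PLAAT4, IFIT2, HERC5, IFITM3, SP110, IFITM2, IRF7, ISG15, UBE2L6, ZC3HAV1 and PARP12.

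IFIT1 had the largest rise in C4-2B, from 5.27, 5.46 and 5.06 with siControl to 6.93, 6.51 and 6.64 with siEZH2, a log2 difference of 1.43 ± 0.18 (adjusted p = 6.7e-06). OASL was not detected on any siControl array and read 5.57, 5.50 and 5.37 with siEZH2, which puts it at least 1.93-fold higher (adjusted p = 3.51e-06; a bound set by the lowest signals that count as detected). PLAAT4 read 5.08, 4.86 and 4.45 against 5.75, 5.71 and 5.65, a difference of 0.91 ± 0.16 (adjusted p = 0.000323). For these genes no siEZH2 array overlapped a siControl array. IFIT2 read 5.12, 5.30 and 5.13 against 6.07, 5.87 and 6.12 (0.84 ± 0.14, adjusted p = 0.000176). HERC5 read 5.95, 6.18 and 5.97 against 6.88, 6.56 and 6.84 (0.73 ± 0.12, adjusted p = 9e-05). IFITM3 read 8.20, 8.13 and 8.26 against 8.74, 8.87 and 8.99 (0.67 ± 0.10, adjusted p = 2.68e-05). Second probes of IFIT1 and OASL, detected on 7 and 8 arrays, had differences of 0.04 ± 0.17 and 0.09 ± 0.15 in C4-2B and were not called. Of 8 other probes of the members that rose, 6 had the same sign. An SP110 probe was called (0.55 ± 0.12, limma adjusted p over all probes = 0.00245). Another SP110 probe (−0.12 ± 0.14) and those of IRF7 (0.53 ± 0.18), UBE2L6 (−0.06 ± 0.16) and ZC3HAV1 (0.15 ± 0.15 and 0.21 ± 0.14) were not.

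Several members stayed at the limit of detection in C4-2B. OAS2, CMPK2, DDX60, SAMD9 and EPSTI1 were detected on no array of either transfected group, and RSAD2 was detected on 1 siEZH2 array at 4.44 ± 0.08. IFI27 was at 4.56 ± 0.17 with siControl and 4.38 ± 0.05 with siEZH2. None of the 6 measured IFI family members passed the test.

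The difference between the lines was tested directly. For 23 members the siEZH2 effect was smaller in C4-2B than in LNCaP, and for 0 it was larger (2.61% of all genes were called lower and 3.14% higher in this contrast). Over the 41 members that met the detection rule on the other arrays, 22 had a smaller effect in C4-2B and 0 a larger one. The median difference of effects over all 44 was −0.56. It was largest for IFI27 (−2.25 ± 0.19, adjusted p = 6.19e-08), OASL (−2.23 ± 0.19, adjusted p = 6.19e-08), OAS2 (−2.15 ± 0.17, adjusted p = 3.22e-08) and RSAD2 (−2.07 ± 0.18, adjusted p = 8.25e-08). In C4-2B OAS2 was not detected in either group, OASL and RSAD2 were not detected with siControl and IFI27 was not detected with siEZH2, so these fitted differences rest on values at background and are not measured sizes. All 4 oligoadenylate synthetases, 3 of 4 IFIT genes, 4 of 6 IFI family members and both GTPases were among the 23, and 0 of 4 PARP and DTX3L genes. IFIT1, although called in both lines, had a smaller effect in C4-2B (−1.12 ± 0.26, adjusted p = 0.0119), while IFITM2 (−0.28 ± 0.17, adjusted p = 0.378) and ZC3HAV1 (0.01 ± 0.13, adjusted p = 0.978) did not pass.

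EPZ6438 gave smaller changes. In LNCaP 11 of 44 members rose and 0 fell (3.95% of all genes were called higher and 2.66% lower; at an unadjusted p under 0.05, 18 were higher and 1 lower by limma), with a median log2 difference of 0.17 against 0.01 over all genes. They were IFIT2, PLAAT4, OASL, GBP1, ISG20, IFI27, UBE2L6, RSAD2, HERC5, PARP12 and SAMD9, and all 11 had also risen with siEZH2 in LNCaP, where 26.5% of the genes called higher with EPZ6438 were called higher with siEZH2.

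IFIT2 read 7.25, 7.36 and 7.02 with DMSO and 8.29, 7.63 and 8.11 with EPZ6438, a log2 difference of 0.80 ± 0.14 (adjusted p = 0.00128). PLAAT4 read 6.80, 7.67 and 7.02 against 7.89, 7.78 and 8.22 (0.80 ± 0.16, adjusted p = 0.00443). OASL read 6.30, 6.67 and 6.24 against 7.18, 6.84 and 7.41 (0.74 ± 0.13, adjusted p = 0.00165). In each of these genes the lowest EPZ6438 array lay above the highest DMSO array, by a small margin for PLAAT4 and OASL. GBP1 read 5.10, 5.32 and 5.07 against 5.78, 5.75 and 5.94 (0.66 ± 0.11, adjusted p = 0.000684). ISG20 read 8.66, 9.02 and 8.82 against 9.18, 9.31 and 9.73 (0.57 ± 0.15, adjusted p = 0.0209). IFI27 read 4.47, 4.86 and 4.92 against 5.53, 5.25 and 5.13 (0.55 ± 0.14, adjusted p = 0.0154). IFIT1 was uneven across the EPZ6438 arrays, at 8.26, 7.28 and 7.29 against 7.27, 7.31 and 6.93 with DMSO, and did not pass (0.44 ± 0.18, adjusted p = 0.162). A second probe of IFIT3 rose by 0.72 (limma adjusted p over all probes = 0.000985), while the better detected probe had a difference of 0.17 ± 0.19.

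The calls with EPZ6438 in LNCaP depended on the processing. The count was 0 when only the DMSO and EPZ6438 arrays were fitted (14 higher and 1 lower at an unadjusted p under 0.05 by limma) and 0 under either centring in place of quantile normalisation (9 higher and 0 lower, and 11 higher and 0 lower, unadjusted), and it was 5 without DMSO replicate 1, 6 without DMSO replicate 3 and 5 without EPZ6438 replicate 3.

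In C4-2B EPZ6438 gave few calls among the members. There 7 of 44 rose and 1 fell (8.06% of all genes were called higher and 7% lower), with a median of 0.06 against 0 over all genes. Whether the counts of members differ from these shares was not tested. UBE2L6 was the member called higher in both lines, which is 9.09% of the LNCaP list and 14.3% of the C4-2B list, against 35.3% and 17.3% over all genes; the second share is near that of all genes. OAS3 read 4.83, 4.70 and 5.12 with DMSO and 5.61, 5.71 and 5.54 with EPZ6438, a log2 difference of 0.74 ± 0.12 (adjusted p = 7.27e-05). SP110 read 5.21, 5.46 and 5.33 against 5.79, 6.05 and 5.77 (0.54 ± 0.11, adjusted p = 0.00103). The EPZ6438 arrays were above all DMSO arrays for both.

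IFI6 read 8.75, 9.14 and 9.26 with DMSO and 9.45, 9.31 and 9.70 with EPZ6438 (0.44 ± 0.14, adjusted p = 0.0386). UBE2L6 read 5.32, 5.40 and 5.46 against 5.69, 5.80 and 5.83 (0.38 ± 0.12, adjusted p = 0.031). ZC3HAV1 read 8.89, 9.08 and 8.96 against 9.41, 9.35 and 9.31 (0.38 ± 0.09, adjusted p = 0.0052), and its groups did not overlap. IFITM1 read 5.23, 5.57 and 5.50 against 5.72, 5.74 and 5.91 (0.36 ± 0.11, adjusted p = 0.0304), and IFITM3 rose by 0.34 ± 0.10. IFI35, a leucine zipper protein, fell from 6.47, 6.72 and 6.51 to 6.02, 6.21 and 6.13 (−0.45 ± 0.11, adjusted p = 0.00426), opposite to its rise with siEZH2 in LNCaP. Other probes of the members that rose here were not called. Their differences were 0.05 ± 0.14 (IFI6), −0.09 ± 0.14 and 0.32 ± 0.12 (SP110), −0.08 ± 0.16 (UBE2L6), and 0.16 ± 0.15 and 0.16 ± 0.14 (ZC3HAV1). IFIT1, IFIT2 and PLAAT4 were not detected with DMSO in C4-2B, and with EPZ6438 they were detected on 1, 1 and 0 arrays. The count of rises was 0 under median centring (4 higher and 0 lower at an unadjusted p under 0.05 by limma), 3 with centring on detected probes, 4 when only the compared groups were fitted, 4 with the mean of a gene's probes and 3 without C4-2B DMSO replicate 1. In the same order, 178, 610, 754, 1089 and 1000 of all genes were called higher, against 1111 in the main setting.

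Tested as a difference, the EPZ6438 effect was larger in C4-2B for OAS3 (0.80 ± 0.17, adjusted p = 0.00378) and ZC3HAV1 (0.48 ± 0.13, adjusted p = 0.0226), against 3.19% of all genes. It was smaller for ISG20 (−0.92 ± 0.21, adjusted p = 0.00732), OASL (−0.85 ± 0.19, adjusted p = 0.00631), GBP1 (−0.59 ± 0.15, adjusted p = 0.0188) and IFI35 (−0.55 ± 0.15, adjusted p = 0.026), against 3.4% of all genes. In C4-2B GBP1 was not detected in either group, nor OASL with EPZ6438. All 6 calls were lost under median centring, and that of ZC3HAV1 also with the mean of its probes (0.13, adjusted p = 0.681), when only the compared groups were fitted (adjusted p = 0.104) and with the replicate number as a block (adjusted p = 0.0547). The 4 lower calls became 0 under median centring (1 higher and 4 lower at an unadjusted p under 0.05 by limma) and 2 with centring on detected probes, when only the compared groups were fitted, and without LNCaP DMSO replicate 3 or LNCaP EPZ6438 replicate 3. Over all genes the lower calls went from 469 to 18 under median centring, 260 with centring on detected probes and 248 with only the compared groups.

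**Figure D3:**
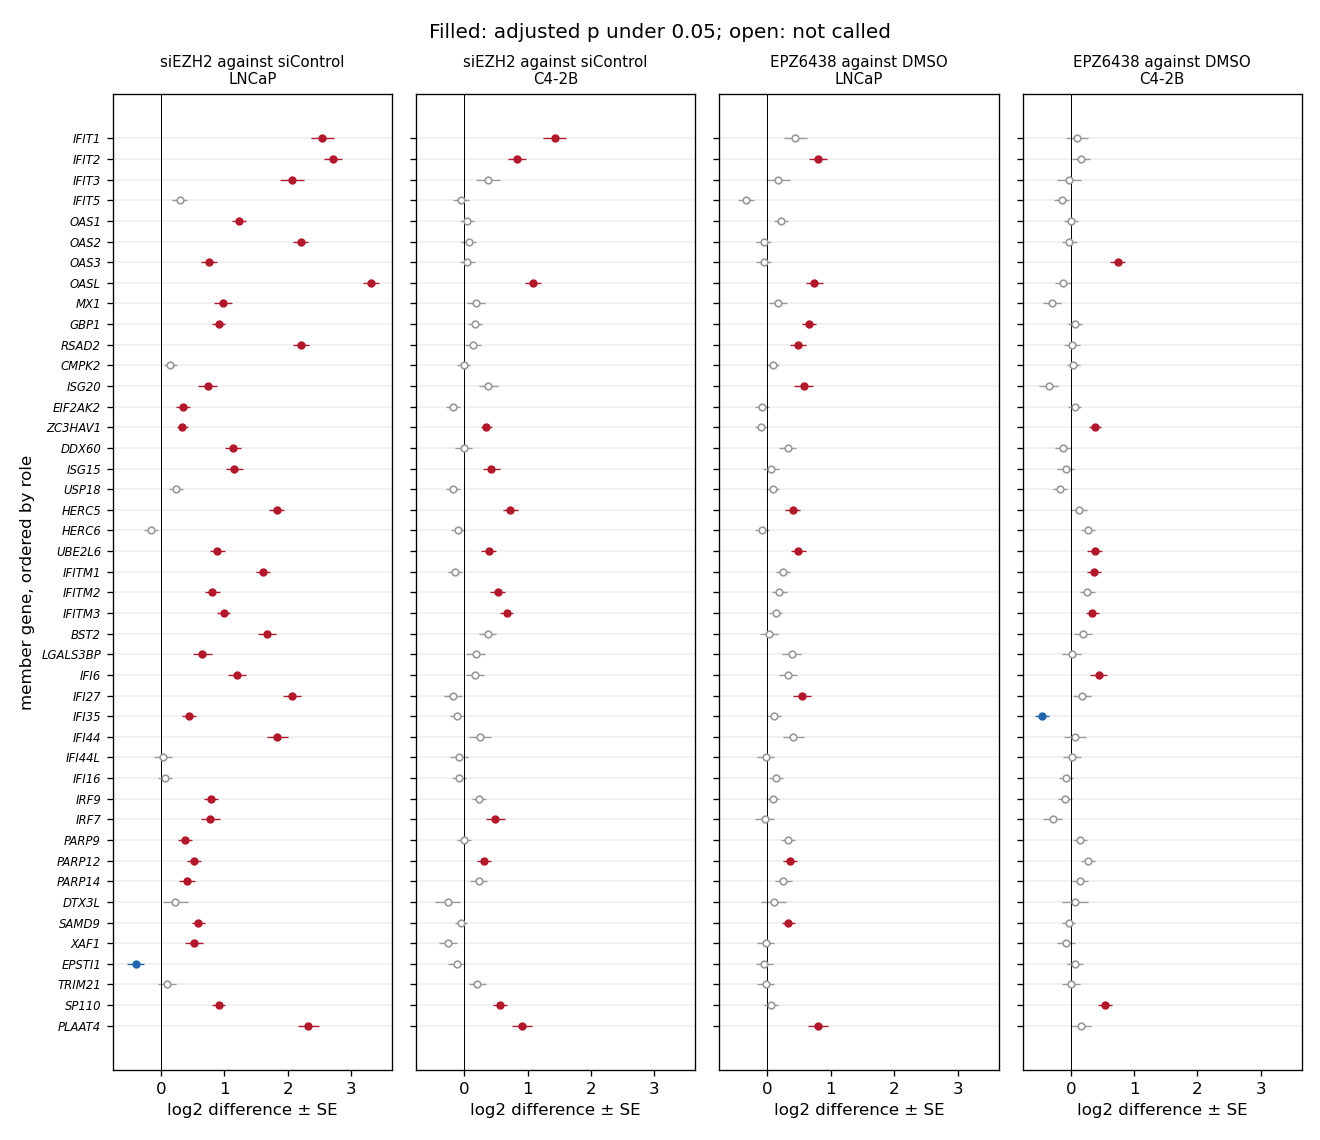
Log2 difference with its SE (horizontal axis) of each of the 44 measured members (rows, by role) for both treatments, each against its own control, in both lines. Filled points passed the test at adjusted p under 0.05: with siEZH2, 35 higher and 1 lower in LNCaP against 13 and 0 in the other line, and with EPZ6438, 11 higher in LNCaP against 7 higher and 1 lower in C4-2B.

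Depletion and inhibition were compared within each line as the difference of the 2 effects, each against its own control arrays. In LNCaP the siEZH2 effect exceeded the EPZ6438 effect for 25 members and fell below it for 0 (8.77% of all genes were called higher and 9.66% lower). It exceeded it most for OASL (2.58 ± 0.19, adjusted p = 2.3e-09), OAS2 (2.27 ± 0.17, adjusted p = 2.3e-09), IFIT1 (2.11 ± 0.26, adjusted p = 3.15e-06) and IFIT2 (1.92 ± 0.20, adjusted p = 3.34e-07). Over the 37 members that met the detection rule on the other arrays, the siEZH2 effect was larger for 21 and smaller for 0. OAS2 is not among these 37. It was detected on 1 array each of DMSO, EPZ6438 and siControl, so its fitted difference is not a measured size. GBP1 (0.25 ± 0.15, adjusted p = 0.293), ISG20 (0.16 ± 0.21, adjusted p = 0.668) and PARP12 (0.16 ± 0.15, adjusted p = 0.523), which rose with both treatments, did not pass. In C4-2B the siEZH2 effect was larger for 7 members and smaller for 2 (6.58% of all genes were called higher and 7.19% lower). The larger effects were those of IFIT1 (1.33 ± 0.26, adjusted p = 0.00094), OASL (1.21 ± 0.19, adjusted p = 8.7e-05), IRF7 (0.77 ± 0.21, adjusted p = 0.013), PLAAT4 (0.75 ± 0.23, adjusted p = 0.0316), ISG20, IFIT2 and HERC5. OAS3 (−0.69 ± 0.17, adjusted p = 0.00571) and IFITM1 (−0.51 ± 0.16, adjusted p = 0.0318) had the smaller effects. IFIT1 and PLAAT4 were not detected with DMSO, PLAAT4 and OASL not with EPZ6438 and OASL not with siControl, so their fitted differences rest on values at background and are not measured sizes. Under median centring 2 members were higher and 0 lower, and the calls of PLAAT4, IRF7, OAS3 and IFITM1 were lost; those of PLAAT4 and IFITM1 were also lost when single arrays were left out (adjusted p from 0.0532 to 0.0989 and from 0.057 to 0.101). EPZ6438 and siEZH2 were applied in separate experiments, so treatment and experiment cannot be told apart in these contrasts.

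Over the 4 treatment comparisons, 1 member was called higher in all 4, 8 in 3, 12 in 2 and 13 in 1. How many of all genes were called in as many comparisons was not counted, so whether these numbers are unusual is not known. UBE2L6, the member called in all 4, read 5.52, 5.66 and 5.64 with siControl and 6.45, 6.49 and 6.54 with siEZH2 in LNCaP, and 7.04, 7.41 and 7.30 with DMSO and 7.63, 7.65 and 7.94 with EPZ6438. Its second probe, detected on 13 arrays, had differences of 0.06 ± 0.16 and −0.06 ± 0.16 with siEZH2 in LNCaP and C4-2B. With EPZ6438 this second probe had differences of 0.26 ± 0.16 and −0.08 ± 0.16 in LNCaP and C4-2B. It was called in none of the 4 comparisons. The 8 called in 3 were IFIT2, OASL, ZC3HAV1, HERC5, IFITM3, PARP12, SP110 and PLAAT4. IFI35 was called once in each direction, EPSTI1 only lower, and IFIT5, CMPK2, USP18, HERC6, IFI44L, IFI16, DTX3L and TRIM21 were not called in any.

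Genes upstream of the response were examined in a list of 37 interferons, receptors, sensors and signalling proteins, of which 31 were measured. With siEZH2 in LNCaP 13 rose and 2 fell, against 14.2% and 12.5% of all genes. IFNB1, interferon beta, was not detected with siControl (4.43 ± 0.07) and was at 6.75 ± 0.09 with siEZH2, at least 4.67-fold higher (adjusted p = 3.09e-15). It was not detected on any array of the other groups. IFNL1, a type III interferon, went from an undetected 4.19 ± 0.03 to 5.65 ± 0.20, at least 2.18-fold higher (adjusted p = 1.15e-11), and was likewise detected in no other group. Both genes met the detection rule only through the 3 siEZH2 arrays of LNCaP. IFIH1 rose from 6.56 ± 0.05 to 7.99 ± 0.01 and RIGI from 4.96 ± 0.06 to 5.97 ± 0.13. IRF1 rose from 5.36 ± 0.16 to 6.69 ± 0.11, and TRIM25 fell from 8.11 ± 0.06 to 6.92 ± 0.22. IFNAR1, a subunit of the type I interferon receptor, fell from 8.47 ± 0.07 to 7.02 ± 0.12 in LNCaP (−1.45 ± 0.11, adjusted p = 3.84e-10) and from 7.21 ± 0.09 to 6.01 ± 0.23 in C4-2B (−1.21 ± 0.11, adjusted p = 2.27e-08).

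In C4-2B 5 of the 31 genes rose with siEZH2 and 2 fell, against 10.1% and 8.5% of all genes. TRIM25, the ligase that activates RIG-I, fell by 0.92 on the log2 scale, and IFNGR1, a subunit of the interferon gamma receptor, and IRF1, a transcription factor, rose by 0.63 ± 0.11 and 0.59 ± 0.20. With EPZ6438 in LNCaP 4 genes rose and 0 fell, against 3.95% and 2.66% of all genes: IRF1 (0.90 ± 0.20), RIGI (0.65 ± 0.15), IL10RB (0.41 ± 0.12), a subunit of the type III interferon receptor, and IFNGR2 (0.39 ± 0.10). With EPZ6438 in C4-2B 2 rose, STING1 (0.59 ± 0.11), the adaptor for cytosolic DNA, and PIAS1 (0.55 ± 0.13), a SUMO ligase, and 2 fell, TRIM25 (−0.84 ± 0.13) and IFIH1 (−0.48 ± 0.15), counts no higher than the shares of all genes called there, 8.06% and 7%.

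Of a list of 32 interferon-inducible genes outside the members 25 were measured, and 13 rose and 2 fell with siEZH2 in LNCaP, against 14.2% and 12.5% of all genes. Among those that rose, GBP5 and RTP4 met the detection rule only through the compared arrays. CXCL10, a chemokine that attracts T cells, rose from 5.67 ± 0.23 to 8.14 ± 0.22 and CXCL11 from 4.48 ± 0.12 to 5.87 ± 0.03, while TRIM5, a capsid-binding restriction factor, fell by 1.78 on the log2 scale. In C4-2B 3 rose, TAP1 (1.24 ± 0.11), the peptide transporter of antigen presentation, CXCL10 (1.04 ± 0.15) and HELZ2 (0.89 ± 0.17), and TRIM5 fell (−0.62 ± 0.16), which is near the 10.1% of all genes called higher. With EPZ6438 4 rose and 0 fell in LNCaP, against 3.95% and 2.66% of all genes, led by CXCL10 (1.01 ± 0.15) and GBP2 (0.95 ± 0.14), with TNFSF10 (0.45 ± 0.09) and TAP1 (0.43 ± 0.11) behind. In C4-2B 2 rose, HELZ2 (0.69 ± 0.17) and TAP1 (0.54 ± 0.11), and 2 fell, WARS1 (−1.05 ± 0.14) and IFIH1, which is in both lists; these counts are near the 8.06% and 7% of all genes called there.

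The 2 lines also differed when their control groups, given DMSO or siControl, were compared. With DMSO 27 members were lower in C4-2B than in LNCaP and 5 were higher (20% and 19.9% of all genes), with a median log2 difference of −0.45. With siControl 31 were lower and 1 was higher (24.3% and 22.6% of all genes), with a median of −0.59. In LNCaP 37 members were detected on all 3 DMSO arrays and 38 on all 3 siControl arrays; in C4-2B these numbers were 25 and 27. The mean log2 intensity of the members was 5.71 to 5.96 over the C4-2B arrays, below every LNCaP array.

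The lower members with DMSO were led by genes that C4-2B did not show above background. PLAAT4 read 6.80, 7.67 and 7.02 in LNCaP and was undetected at 4.26, 4.22 and 4.23 in C4-2B, at least 6.15-fold lower (adjusted p = 4.15e-13). IFIT2 was undetected at 4.33, 4.35 and 4.30, at least 6.35-fold lower (adjusted p = 3.88e-14), and IFIT1 at 4.27, 4.35 and 4.28, at least 6.18-fold lower (adjusted p = 5.27e-12). IFI44 read 7.68, 7.64 and 7.43 against 4.71, 4.41 and 5.26 (−2.79 ± 0.17, adjusted p = 3.25e-12). OASL read 6.30, 6.67 and 6.24 against 4.35, 4.67 and 4.21, detected on 1 C4-2B array (−1.99 ± 0.13, adjusted p = 1.31e-11). The lines did not overlap in any of these. BST2 ran the other way, at 4.76, 4.43 and 4.79 in LNCaP against 6.39, 6.10 and 6.64 in C4-2B (1.71 ± 0.14, adjusted p = 3.1e-10). PARP14 read 4.38, 4.93 and 4.55 against 5.61, 5.64 and 5.53 (0.97 ± 0.13, adjusted p = 1.67e-06), IRF7 was 0.91 ± 0.15 higher, IFITM1 0.50 ± 0.11 and PARP12 0.33 ± 0.11.

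With siControl the largest gaps were those of IFIT1, at 7.69, 7.97 and 7.88 in LNCaP against 5.27, 5.46 and 5.06 in C4-2B (−2.58 ± 0.18, adjusted p = 2.67e-11), and IFI6, at 10.62, 10.80 and 10.85 against 8.25, 8.44 and 8.57 (−2.34 ± 0.14, adjusted p = 1.42e-12). IFI44 (−2.31 ± 0.17), IFIT2 (−1.85 ± 0.14) and PLAAT4 (−1.58 ± 0.16) followed. PARP14 was again higher in C4-2B, at 5.64 ± 0.04 against 4.47 ± 0.12 (1.17 ± 0.13, adjusted p = 6.41e-08). BST2, higher in C4-2B with DMSO, was lower there with siControl (4.48 ± 0.09 against 4.91 ± 0.11, adjusted p = 0.0113). The mean of the luminal markers was 8.93 to 9.12 on the C4-2B DMSO arrays and 7.95 to 8.07 on its siControl arrays, and 9.09 to 9.20 and 9.40 to 9.44 in LNCaP; its part in these differences was not tested.

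**Figure D4:**
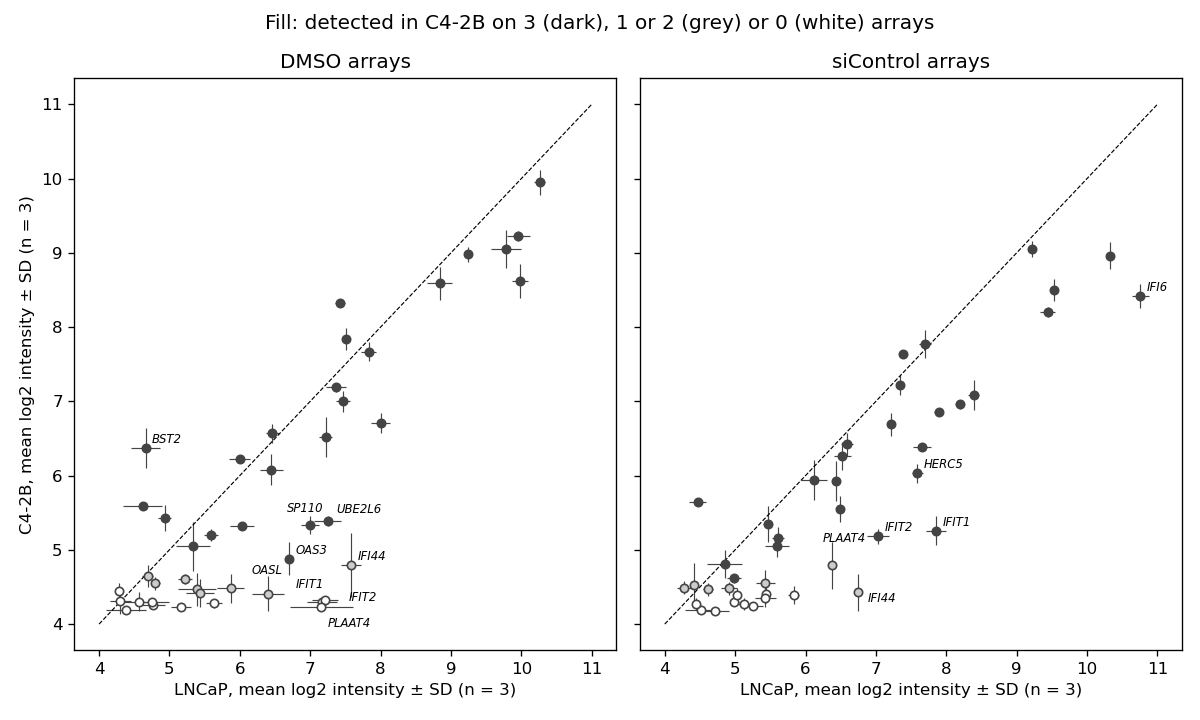
Mean normalised log2 intensity of each of the 44 measured members in C4-2B (vertical axis) against LNCaP (horizontal axis) with the SD of 3 arrays, for DMSO and for siControl, with the line of equal values. Fill shows on how many of the 3 C4-2B arrays the gene was detected. Most members lie below the line, and PARP14 lies above it in both.

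The control groups of both experiments also differed, as siControl against DMSO, where transfection and experiment cannot be told apart. In LNCaP 7 members were higher and 16 lower with siControl (12.6% and 13.8% of all genes). The balance moved with the scaling, to 4 higher and 3 lower under median centring and 4 higher and 8 lower with centring on detected probes. Calls over all genes shrank too, so the change was not particular to the members. The main setting had 1744 genes higher and 1900 lower. These became 367 and 262 in the first alternative, and 1332 and 1488 in the second. The higher ones were led by IFI6, at 9.56, 9.97 and 9.80 with DMSO and 10.62, 10.80 and 10.85 with siControl (0.98 ± 0.14, adjusted p = 1.62e-05), USP18, at 5.49, 5.59 and 5.70 against 6.56, 6.46 and 6.45 (0.90 ± 0.11, adjusted p = 1.26e-06), and IRF9, at 7.23, 7.36 and 7.51 against 8.21, 8.24 and 8.13 (0.83 ± 0.11, adjusted p = 6.49e-06). IFIT1 and IFI27 were each 0.68 higher. The lower ones were led by UBE2L6, at 7.04, 7.41 and 7.30 against 5.52, 5.66 and 5.64 (−1.65 ± 0.12, adjusted p = 8.13e-10), followed by IFI44 (−0.84 ± 0.17), LGALS3BP (−0.79 ± 0.15), PLAAT4 (−0.78 ± 0.16) and IFITM2 (−0.74 ± 0.12). For UBE2L6 the siEZH2 level of LNCaP, 6.49 ± 0.05, lay below its DMSO level of 7.25 ± 0.19.

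In C4-2B 8 members were higher and 11 lower with siControl than with DMSO (19% and 21.1% of all genes). OAS3 read 4.83, 4.70 and 5.12 with DMSO and 6.59, 6.32 and 6.34 with siControl (1.53 ± 0.12, adjusted p = 2.22e-10), and SP110 5.21, 5.46 and 5.33 against 6.64, 6.86 and 6.57 (1.36 ± 0.11, adjusted p = 5.03e-10). OAS3 and SP110 were the members with the largest rise both with EPZ6438 and in this control comparison, which share the C4-2B DMSO arrays. IFIT1, IFIT2 and PLAAT4, undetected with DMSO, were at least 1.65-fold, 1.56-fold and 1.19-fold higher with siControl. In the authors' processed table these calls were lost (log2 differences of 0.48, 0.34 and 0.05, adjusted p = 0.131, 0.115 and 1). BST2 fell from 6.39, 6.10 and 6.64 to 4.50, 4.38 and 4.55 (−1.90 ± 0.14, adjusted p = 8.13e-11). ISG20 read 8.78, 8.65 and 8.35 against 7.06, 6.91 and 7.31 (−1.50 ± 0.15, adjusted p = 1.81e-08). IFITM2 (−1.44 ± 0.12), IFITM3 (−1.04 ± 0.10) and IFITM1 (−0.81 ± 0.11), neighbours on chromosome 11, were all lower.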

How the data were processed

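RNA of 24 samples in 8 groups of 3 was measured on Illumina bead arrays with 47311 probes. The authors deposited linear probe intensities, neither normalised nor background-subtracted per the file headers and values, with a detection p-value per probe and array, deposited in steps of 1 over 770. GenomeStudio is named in the submitters' processing notes, without a version; other steps are not given in the sources used here. A processed table, also deposited by the authors as intensities on a linear scale (lowest value -14.3, median 4.2 in every column), served as an alternative with values raised to 16. It holds background-subtracted and equalised signals, as its values show.

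Here intensities were background-corrected, quantile-normalised and converted to log2 with limma's neqc (R 4.3.3, limma 3.58.1, offset 16, detection p-values in place of control probes), so the deposited intensities became log2 values. Probes detected (p-value under 0.05) on 3 or more arrays were kept (26278). Of all probes 30108 have 1 annotated gene, 8 several and 17195 none, and symbols were updated by Entrez ID for 30069. Each of 13789 genes kept the probe detected on most arrays, ties going to the highest mean. limma's lmFit and eBayes were fitted over all 24 arrays with 8 group means (16 residual and 7.45 prior degrees of freedom), and p-values were Benjamini-Hochberg adjusted per comparison. The fit was tested on simulated data. A gene not detected in a group got a lower bound, set by the lowest signal of detected probes on each array.

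The members and the lists of upstream genes, other interferon-inducible genes and cell type markers (luminal, blood and immune, fibroblast, endothelial) were chosen with earlier results of these data known. Named with values were the 6 largest called rises and 4 largest called falls per treatment comparison, the 4 largest each way per difference of effects, the 5 largest each way per baseline comparison, members called in opposite directions, and up to 4 genes per further list. For siEZH2 in LNCaP more genes of the upstream list were named. Replicates of a group correlated at 0.986 or more, and 0 pairs of arrays had identical values. Replicate numbers are shared by the groups in the labels, but the correlation of same-numbered deviations ran from -0.28 to 0.32, with 2 of 12 over 0.1, so arrays were not paired. Alternatives covered the background correction, normalisation, filter, probe choice, fitted groups, replicate block and each array left out. Precision is limited by the 3 arrays per group.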

Additional observations from a re-analysis of the deposited data

Results flagged for a closer look

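Effects of the same treatment differed between the lines by the test of the difference itself (limma, n = 3 arrays a group). The siEZH2 effect was smaller in C4-2B than in LNCaP for 23 members, with the largest gaps for IFI27 (-2.25), OASL (-2.23), OAS2 (-2.15) and RSAD2 (-2.07). The EPZ6438 effect was larger in C4-2B for 2 members, OAS3 (0.80) and ZC3HAV1 (0.48), and smaller for 4, ISG20 (-0.92), OASL (-0.85), GBP1 (-0.59) and IFI35 (-0.55). OAS2 was undetected in both transfected groups of C4-2B and GBP1 in both drug groups, and OASL, RSAD2 and IFI27 in at least 1 C4-2B group, so these values are not measured sizes.

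Effects of the treatments also differed within a line. In LNCaP the siEZH2 effect was larger than that of EPZ6438 for 25 members, led by OASL (2.58), OAS2 (2.27), IFIT1 (2.11) and IFIT2 (1.92). OAS2 met the detection rule only through the compared arrays, and without such members the count was 21 of 37. In C4-2B it was larger for 7, among them IFIT1 (1.33), OASL (1.21), IRF7 (0.77) and PLAAT4 (0.75), and smaller for 2, OAS3 (-0.69) and IFITM1 (-0.51). IFIT1, OASL and PLAAT4 were undetected in at least 1 of the C4-2B groups compared. No group has more than 3 arrays, so single arrays were not tested as outliers.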

How the results depend on the processing

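The main counts in the direction most members took were 35 (siEZH2, LNCaP), 13 (siEZH2, C4-2B), 11 (EPZ6438, LNCaP), 7 (EPZ6438, C4-2B), 23 and 4 (lower, siEZH2 and EPZ6438 effect in C4-2B against LNCaP), 25 and 7 (siEZH2 over EPZ6438 effect, LNCaP and C4-2B), 27 and 31 (lower in C4-2B, DMSO and siControl) and 16 and 11 (lower with siControl than DMSO, LNCaP and C4-2B). Median centring in place of quantiles gave 0 for EPZ6438 in LNCaP and 0 in C4-2B, 14 for the line difference with siEZH2 and 0 with EPZ6438, 2 for siEZH2 over EPZ6438 in C4-2B, and 3 (against 4 higher) and 5 for siControl against DMSO in LNCaP and C4-2B. Centring on detected probes gave 0 and 3 for EPZ6438 in LNCaP and C4-2B, 2 for its line difference and 8 for siControl against DMSO in LNCaP. Fitting only the compared groups gave 0, 4 and 2 for EPZ6438 in LNCaP, in C4-2B and between lines, and the mean of probes gave 4 for EPZ6438 in C4-2B. For EPZ6438 in LNCaP the calls over all genes fell too, from 544 higher to 25 (median centring), 215 (centring on detected probes) and 40 (compared groups only). Under median centring they also fell elsewhere. Lower calls went from 360 to 55 and from 469 to 18 for the siEZH2 and EPZ6438 line differences. Higher calls in C4-2B went from 1111 to 178 (EPZ6438) and from 908 to 122 (siEZH2 over EPZ6438). Lower calls for siControl against DMSO went from 1900 to 262 in LNCaP and from 2904 to 750 in C4-2B. The cause was not tested. For siEZH2 in LNCaP and C4-2B, the all-gene median log2 difference was 0.02 and 0.03 in the main setting. It was 0.184 and 0.21 under median centring, and -0.12 and -0.136 where detected probes set the centre.

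With arrays left out in turn, in the order above, the counts ran from 33 to 35, 9 to 13, 5 to 10, 3 to 7, 19 to 25, 2 to 6, 24 to 26, 5 to 7, 23 to 25, 28 to 31, 11 to 15 and 10 to 13. No named result that was called in the main or the other setting reversed. The call, or its absence, was kept by 766 of 850 values in other settings and 584 of 630 with an array left out. The other 84 and 46 kept only direction. For results called in neither setting, such as IFI35 with siEZH2 in C4-2B, direction was not compared. With the replicate block the treatment comparisons had 35 higher and 1 lower, 12 and 0, 9 and 0, and 7 and 1; 5 of 12 arrays correlated best with their own number, and 1 named call was lost (ZC3HAV1, EPZ6438 effect between lines, limma adjusted p = 0.0547). For the baseline comparisons that block could not be fitted; with the number shared by all groups as a block, added after seeing the data, the 4 counts were 27, 30, 16 and 11 lower and no named call was lost. Members near background, most of them in C4-2B, have only bounds.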
